A study of Mus musculus with 6 samples.

Results

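Transcripts of 10 genes of transforming growth factor beta (TGF-beta) signalling were followed in haematopoietic stem cells (HSCs) that did or did not carry the receptor CD93 on their surface. The genes are Tgfb1, Tgfbr1, Tgfbr2, Tgfbr3, Smad2, Smad3, Smad4, Smad5, Smad7 and Skil, chosen by symbol among the 47937 genes of the deposited table, and each symbol matched 1 row. They were read in CD93-positive (CD93pos, 3 libraries) and CD93-negative (CD93neg, 3 libraries) HSCs from the bone marrow of wild-type male C57BL/6 mice aged 8 weeks. CD93 is a surface glycoprotein of the C-type lectin group. Both fractions were sorted as Lin-depleted, Kit and Sca-1 positive cells that were negative for CD34, Flt3 and CD48 and positive for Slam1. Femora and tibiae were pooled, and the labels name 3 biological replicates per group. The source animals of each library are not stated, so p-values measure the spread between these libraries, which may be partly technical. The comparison asks how the fractions differ in their transcripts.

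TGF-beta is a secreted cytokine that is kept latent in the matrix or on cell surfaces and is known in marrow as a signal that holds HSCs in quiescence. The active dimer binds the type II receptor, which phosphorylates the type I receptor, and the type I receptor phosphorylates Smad2 and Smad3. These join Smad4, enter the nucleus and switch target genes, among them Smad7 and Skil, whose products damp the signal. Smad5 belongs to the parallel branch driven by bone morphogenetic proteins (BMPs).

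The receptor-regulated Smads end in a short serine motif that type I receptors phosphorylate, and the coding ends of the family members that can be shown are printed below as an aid to telling the paralogs apart. They come from GENCODE M21 transcripts on GRCm38, 5′ to 3′ in the sense of the gene, with the codons of the serine motif in capitals and the stop codon last.
Smad3 (chr9:63650262-63650294, minus strand): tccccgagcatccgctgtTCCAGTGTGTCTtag
Smad5 (chr13:56737446-56737478, plus strand): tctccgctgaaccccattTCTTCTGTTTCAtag
The stretches differ at 13 of 33 bases, and within the capitals at 5 of 12. Over their whole annotated transcripts Smad2, Smad3, Smad4, Smad7 and Skil had no 50-base word, the length of 1 read, in common with another annotated gene, and the other 5 genes had 0.0153% to 3.85% of their words in common. The highest share was that of Tgfbr3, whose exons overlap the gene model Gm43422 on the same strand, as those of Smad5 overlap Gm27301. No member had such a word in common with another member.

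The libraries differed in depth and in how many genes they reached. Reads assigned to genes numbered 5794528 to 9509304 in CD93pos and 2832653 to 4614396 in CD93neg. CD93neg replicate 1 was the sparsest. The share of unread genes, among the 11805 whose normalized counts averaged at least 10, was 2.10% to 13.5% in CD93pos and 71.0%, 26.4% and 16.0% in CD93neg replicates 1, 2 and 3. A list of 15 HSC genes left 11 once Cd34, Flt3, Cd48 and Cd93 were set aside. All 11 were read in each CD93pos library and 5, 11 and 11 in CD93neg replicates 1, 2 and 3. Per 1e6 assigned reads the 11 summed to 2972, 2962 and 2212 in CD93pos and to 5707, 4623 and 3195 in CD93neg. On that measure every CD93neg library lay above every CD93pos library. All 15 genes summed to 3498, 3476 and 2733 in CD93pos and to 6312, 4783 and 3489 in CD93neg, and there the groups overlapped. Transcripts of genes the sort selected against were read as well. Cd34 had 3216, 1603 and 2496 reads for CD93pos and 1715, 0 and 767 for CD93neg. Cd48 had 640, 371 and 487 reads for CD93pos and 0, 146 and 67 for CD93neg. Flt3 had 236, 0 and 195 reads for CD93pos and 0, 172 and 13 for CD93neg. These reads are not scaled for depth. As a share of assigned reads Cd34 was highest in CD93neg replicate 1 (1715 of 2832653). Cd93 itself was read 906, 1001 and 550 times in the CD93pos libraries and 0, 419 and 38 times in CD93neg. Its transcript was thus present in both sorted fractions. As a share of assigned reads the groups overlapped for Cd93. CD93neg replicate 2 (419 of 4614396) lay above CD93pos replicate 3 (550 of 7152750). The labels call the mice male. Reads of 4 Y-linked genes numbered 2196, 1100 and 1332 in CD93pos and 1, 0 and 0 in CD93neg. Xist, which is transcribed from an inactive X chromosome, was read 0, 0 and 12 times in CD93pos and 0, 2419 and 1143 times in CD93neg. Both were chosen after their values were seen. Y-linked reads were thus all but absent from every CD93neg library, against the label, and Xist was high in CD93neg replicates 2 and 3. Every comparison here rests on these libraries, so no value without them can be given, and the part of sex in the results was not tested. Neutrophil markers summed to 17.9 to 301 CPM (reads per 1e6 assigned) in CD93pos and to 0, 13320 and 9125 CPM in CD93neg replicates 1, 2 and 3. B lineage markers summed to 51.0 to 70.9 CPM in CD93pos and to 0.353, 454 and 434 CPM in CD93neg. Mast cell and basophil markers summed to 94.8, 1057 and 696 CPM in CD93pos and to 0, 27.5 and 0 CPM in CD93neg, with 7 of 8 at 0 in all CD93neg libraries. Endothelial markers reached 1674 CPM in CD93neg replicate 1, against 177 to 391.6 CPM in the other 5 libraries, while Cdh5 was at 0 in all 6. Erythroid markers summed to 605, 371 and 905 CPM in CD93pos and to 228, 133 and 80.9 CPM in CD93neg, also without overlap. T and NK cell markers summed to 25.8 to 76.5 CPM in CD93pos and 0.217 to 52.6 CPM in CD93neg, and monocyte and macrophage markers to 24.3 to 64.0 CPM in CD93pos and 0 to 123.5 CPM in CD93neg. The part of these markers in the results below was not tested. Of the 12 neutrophil markers, Ly6g was at 0 in all CD93pos libraries, and of the 9 B lineage markers 6 were, Cd79a, Pax5, Ebf1, Igll1, Ms4a1 and Cd22.

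Of the 10 genes, Skil and Smad3 were those with groups that did not overlap, in opposite directions. Skil, which encodes the SnoN corepressor, had normalized counts of 44.3, 43.6 and 37.5 for CD93pos and 0, 6.66 and 0 for CD93neg. Smad3 had 189, 1.58 and 181 in CD93pos and 4034, 268 and 344 in CD93neg. Among all tested genes, 18.3% were higher in CD93pos without overlap and 1.92% were lower without overlap. No member passed limma's test: 0 of the 9 tested members were called at an adjusted p under 0.05, as were 0% of the 11805 genes in either direction. At an unadjusted p under 0.05 limma had 1 member, Skil, beside 11.8% of all genes higher and 0.381% lower. edgeR's quasi-likelihood test and DESeq2 on the recovered reads called no member either, although DESeq2 gave no p for Smad3. Here edgeR called 0% of all genes and DESeq2 5.58% as higher and 0.389% as lower. Of the 9 tested members 8 had a positive log2 fold change, a share to be read beside the 79.9% of all tested genes that had one. Under quantile normalization, which sets the libraries to one distribution, 5 members were positive, and the median over all genes was 0.02. With the authors' scaling the median over the 9 was 3.43, and 2.36 over all tested genes. Without CD93neg replicate 1 these medians were 2.07 and 0.43, and 7 members were positive beside 60.1% of all genes. In bulk libraries, fewer cells that express a gene and less RNA per cell cannot be told apart.

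**Figure D1:**
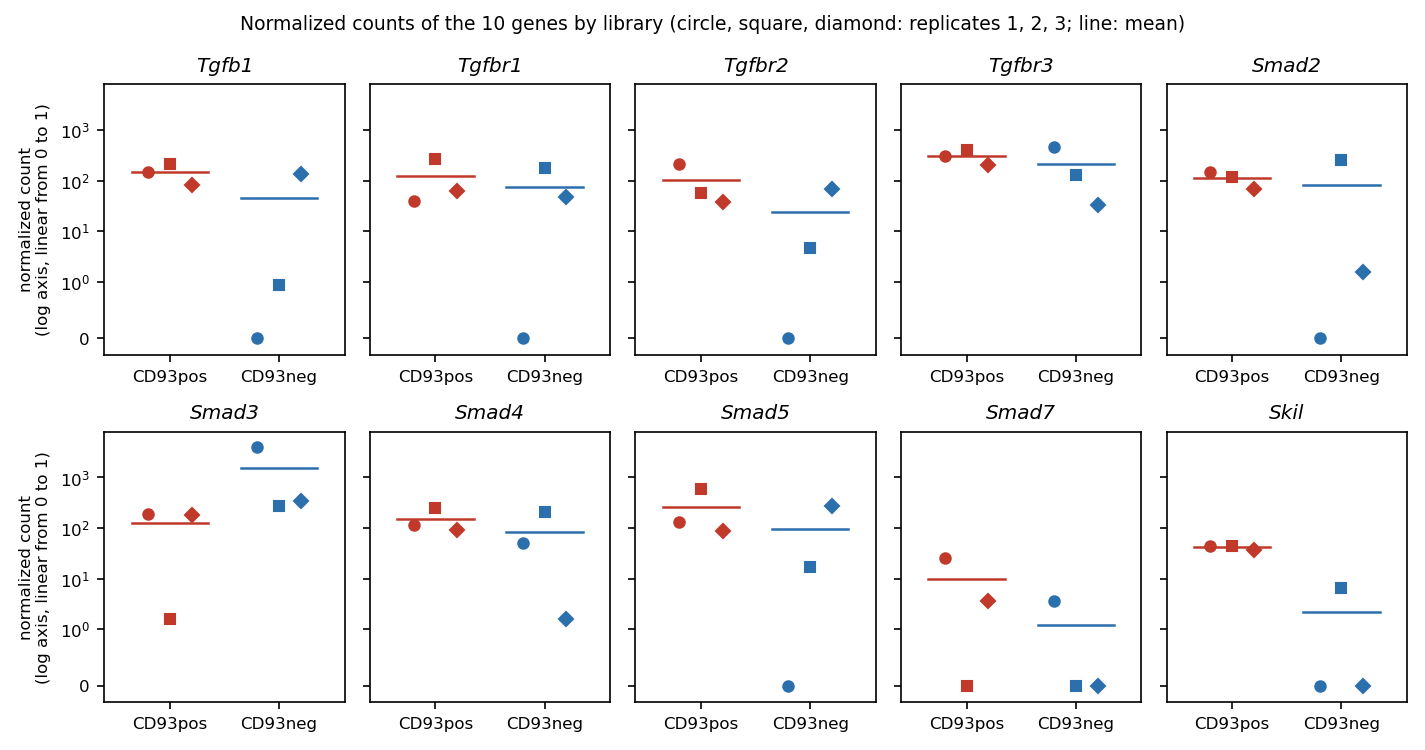
Normalized counts of each of the 10 genes (vertical log axis, linear between 0 and 1) in the CD93pos (left, red) and CD93neg (right, blue) libraries, with circles, squares and diamonds for replicates 1, 2 and 3 and a line at the group mean. Skil and Smad3 have groups that do not overlap, and 6 of the 10 genes stand at 0 in CD93neg replicate 1.

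The ligand gene Tgfb1 (ENSMUSG00000002603.15, GRCm38 chr7:25687002-25705077, plus strand), which encodes TGF-beta1, had normalized counts of 151, 211 and 81.2 for CD93pos and 0, 0.951 and 139 for CD93neg. All 3 CD93pos libraries held more than 100 reads of it, whereas CD93neg replicates 1 and 2 held 0 and 1 and replicate 3 held 89, so the groups overlapped. Group means were 148 ± 64.8 for CD93pos and 46.7 ± 80.0 for CD93neg (SD, n = 3 each). The log2 fold change, on the log2(normalized count + 1) scale, was 4.41 with a standard error (SE) of 2.14. limma gave an unadjusted p of 0.0728 and an adjusted p of 0.449. Log2 fold changes from limma are on this scale unless an alternative is named. Those of edgeR, DESeq2 and the authors' deposited table are not. Without CD93neg replicate 3, which held 89 of the 90 CD93neg reads, limma called Tgfb1 higher (6.63, adjusted p = 0.0142), in a fit that called 15.9% of all genes higher and 0.0424% lower. DESeq2 without that library gave an adjusted p of 0.00632, and called 17.9% of all genes higher and 1.18% lower. edgeR without it gave 0.110. Megakaryocytes are a known source of TGF-beta1 in marrow, and megakaryocyte and platelet markers summed to 2680, 1698 and 2650 CPM in CD93pos and to 810, 1717 and 1592 CPM in CD93neg, with 9, 8 and 9 of 10 markers read against 2, 6 and 8. Gp6 was at 0 in every library and Ppbp in every CD93neg library. The part of these markers in the Tgfb1 values was not tested.

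Receptor transcripts were present in both fractions. Tgfbr3 (ENSMUSG00000029287.14, chr5:107106570-107289629, minus strand) encodes betaglycan, the coreceptor that presents the ligand to the signalling receptors. It had normalized counts of 304, 405 and 202 for CD93pos and 467, 132 and 32.8 for CD93neg. All 6 libraries read it, with the highest value in the sparse CD93neg replicate 1, so the groups overlapped. Its log2 fold change was 1.19 (1.84 SE, adjusted p = 0.732 by limma). Without CD93neg replicate 1 every CD93pos library lay above the other CD93neg libraries, as did 21.8% of all tested genes. The log2 fold change was then 2.13 with an adjusted p of 0.291.

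The signalling receptors were less evenly read. Tgfbr1 (ENSMUSG00000007613.15, chr4:47353222-47414931, plus strand), the type I receptor kinase, had normalized counts of 39.3, 269 and 64.0 for CD93pos and 0, 178 and 48.4 for CD93neg. Replicate 2 was the highest library of each group, and apart from the unread CD93neg replicate 1 the CD93neg values lay within the CD93pos range. Means were 124 ± 126 for CD93pos and 75.4 ± 92.0 for CD93neg, with a log2 fold change of 2.11 (2.29 SE, adjusted p = 0.649 by limma). The sign was not stable, with -0.08 without CD93neg replicate 1, -0.55 in DESeq2 without CD93pos replicate 2 and -0.54 under quantile normalization.

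Tgfbr2 (ENSMUSG00000032440.12, chr9:116084293-116175360, minus strand), the type II receptor kinase that binds the ligand first, had 217, 57.1 and 38.8 in CD93pos and 0, 4.76 and 68.8 in CD93neg. CD93pos replicate 1 stood above the other libraries, and CD93neg replicate 3 lay within the CD93pos range. The log2 fold change was 3.43 (1.92 SE, adjusted p = 0.496 by limma), and -0.09 under quantile normalization.

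The ratio of the receptor chains also varied from library to library. Per kilobase of annotated exon, Tgfbr2 made up 81.5%, 14.5% and 32.6% of the summed Tgfbr1 and Tgfbr2 level in CD93pos replicates 1, 2 and 3. In CD93neg replicates 2 and 3 it made up 2.09% and 53.1%, and replicate 1 had no read of either gene. Wilson 95% intervals, which cover counting error only, ran from 77.8% to 84.7% in CD93pos replicate 1 and from 11.6% to 17.9% in CD93pos replicate 2. The groups overlapped, with CD93neg replicate 3 inside the CD93pos range.

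The receptor Smads of the TGF-beta branch had fold changes of opposite sign. Smad3 (ENSMUSG00000032402.12, chr9:63646767-63757994, minus strand) was the member with a negative fold change. Its reads numbered 413, 2 and 294 in the CD93pos libraries and 2222, 282 and 220 in CD93neg, which gave mean normalized counts of 124 ± 106 for CD93pos and 1549 ± 2152 for CD93neg (SD, n = 3 each). Every CD93neg library lay above every CD93pos library, and the CD93neg mean was 12.5 times that of CD93pos. CD93neg replicate 1 carried most of that difference: without it the CD93neg mean was 306, or 2.47 times that of CD93pos, still without overlap, as was the case for 13.8% of all tested genes lower in CD93pos. The log2 fold change was -4.01 (2.39 SE, adjusted p = 0.522 by limma), below which lay 0.525% of all tested genes. It was negative under each alternative run, from -5.06 to -1.19. Without CD93pos replicate 2, the library with 2 reads, it was -1.96. In the authors' deposited table Smad3 has a log2 fold change of -3.64 and no p-value.

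Smad2 (ENSMUSG00000024563.15, chr18:76241580-76310963, plus strand), the paralog that the same receptor phosphorylates, had normalized counts of 148, 119 and 68.3 for CD93pos and 0, 252 and 1.56 for CD93neg. CD93neg replicate 2 was the highest of the 6 libraries, and the other CD93neg libraries had 0 and 1 read. Means were close, 112 ± 40.2 for CD93pos and 84.6 ± 145 for CD93neg, while the log2 fold change was 3.63 (2.26 SE, adjusted p = 0.539 by limma), a value that includes the near-empty libraries. DESeq2 without CD93neg replicate 2 called Smad2 higher in CD93pos (adjusted p = 0.0354, with 8.07% of all genes called higher and 0.967% lower). Without CD93neg replicate 1 or 3 it gave log2 fold changes of -0.15 and -0.18.

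Set against each other within a library, Smad3 made up 66.9%, 2.07% and 80.8% of the summed Smad2 and Smad3 level per kilobase in the CD93pos libraries (replicates 1, 2 and 3) and 100%, 62.8% and 99.7% in the CD93neg libraries. Both fractions thus held libraries in which Smad3 was the more abundant paralog, and CD93pos replicate 2 was the library in which Smad2 was. The Wilson 95% interval of that library was 0.572% to 7.20%, and that of CD93neg replicate 2 was 58.8% to 66.6%.

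**Figure D2:**
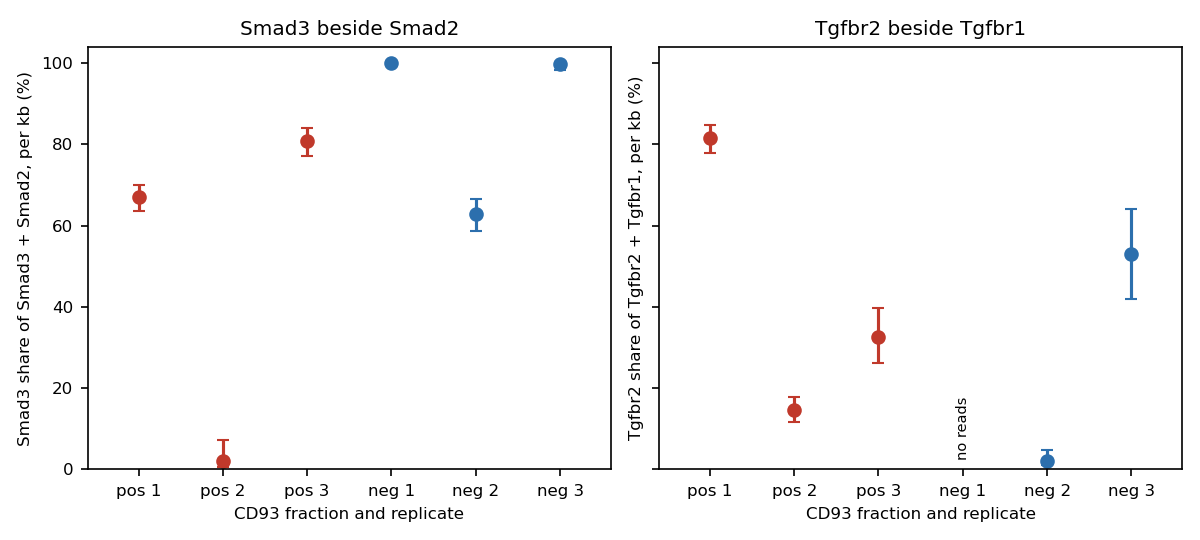
Share of Smad3 in Smad3 plus Smad2 (left) and of Tgfbr2 in Tgfbr2 plus Tgfbr1 (right), per kilobase of exon, in each library (CD93pos red, CD93neg blue), with Wilson 95% intervals for counting error. The Smad3 share runs from 2.07% to 80.8% in CD93pos and from 62.8% to 100% in CD93neg, and CD93neg replicate 1 has no read of either receptor.

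Smad4 (ENSMUSG00000024515.13, chr18:73639009-73703780, minus strand), the common partner of the TGF-beta and BMP branches, was read in all 6 libraries. Its normalized counts were 117, 249 and 92.9 in CD93pos and 50.8, 204 and 1.56 in CD93neg. Replicate 2 was the highest in each group, and CD93neg replicate 3 held a single read. The log2 fold change was 2.22 (2.16 SE, adjusted p = 0.630 by limma).

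Smad5 (ENSMUSG00000021540.16, chr13:56703010-56742377, plus strand), which carries BMP signals, had 130, 578 and 87.4 in CD93pos and 0, 17.1 and 269 in CD93neg. CD93pos replicate 2 was the highest library, and CD93neg replicate 3 exceeded the other CD93pos libraries. The log2 fold change was 3.47 (2.40 SE, adjusted p = 0.579 by limma). Smad1, the other BMP Smad of this branch and not among the 10 genes, had 214, 42 and 237 reads for CD93pos and 0, 0 and 115 for CD93neg. Per kilobase Smad5 made up 52.8%, 93.6% and 33.6% of the pair in CD93pos, and 100% and 55.8% in CD93neg replicates 2 and 3, where the 100% rests on 18 reads against 0 (Wilson 95% interval 79.8% to 100%).

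The inhibitors of the pathway were the least read of the 10 genes. Skil (ENSMUSG00000027660.16, chr3:31095058-31122577, plus strand) had 97, 55 and 61 reads for CD93pos and 0, 7 and 0 for CD93neg. Its CD93pos libraries were the most alike of any member, with a coefficient of variation of 8.92%, against 33.3% to 142% for the other 9 genes. Normalized counts averaged 41.8 ± 3.73 for CD93pos and 2.22 ± 3.85 for CD93neg, a ratio of 18.8, and 12.6 without CD93neg replicate 1. Because its CD93neg mean lay under the minimum of 10, Skil entered the test through CD93pos alone. Its log2 fold change was 4.44 (1.42 SE, unadjusted p = 0.0139, adjusted p = 0.200 by limma), and 15.0% of all tested genes had a higher one. The value was -0.08 under quantile normalization. Over all alternatives the adjusted p ranged from 0.0511, in DESeq2 without CD93neg replicate 2, to 0.9999, and with a minimum of 50 the gene was not tested. The authors' deposited table gives Skil a log2 fold change of 4.15 with an adjusted p of 0.308.

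Smad7 (ENSMUSG00000025880.11, chr18:75367529-75395935, plus strand), which blocks the type I receptor, had 57, 0 and 6 reads for CD93pos and 2, 0 and 0 for CD93neg. With a mean normalized count of 5.56 it lay under the minimum and was not tested. Most of its reads came from CD93pos replicate 1. A count of 0 in CD93neg replicates 2 and 3 allows up to 2.85 and 4.69 normalized counts (3 reads, counting error only), so its level there was not detectable at this depth.

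**Figure D3:**
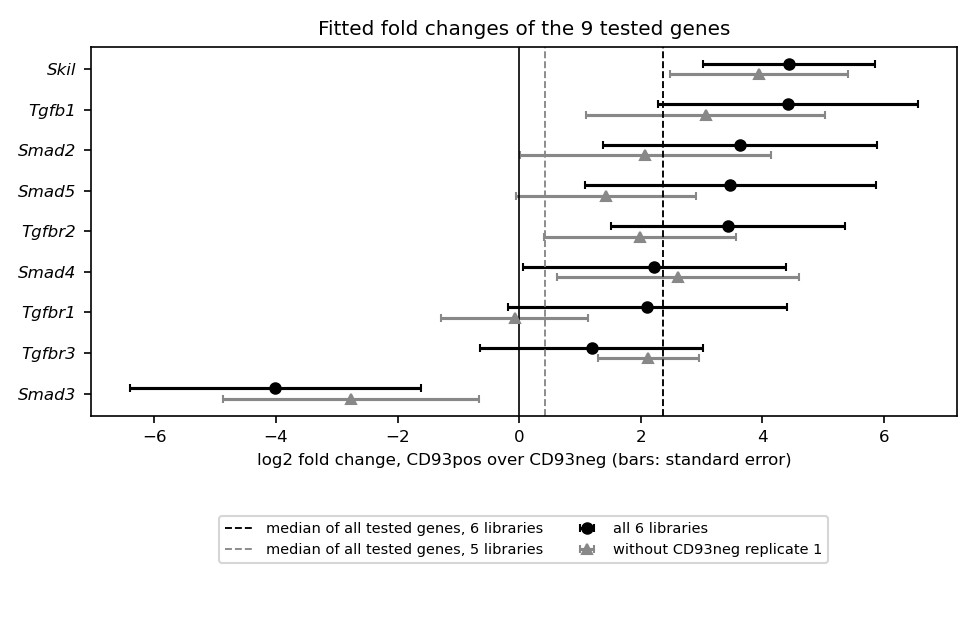
Fitted log2 fold changes, CD93pos over CD93neg, of the 9 tested genes (horizontal axis, bars for the standard error) with all 6 libraries (black circles) and without CD93neg replicate 1 (grey triangles); dashed lines mark the median of all tested genes, 2.36 and 0.43. Smad3 is the gene on the negative side with both sets, and Tgfbr1 lies at -0.08 without CD93neg replicate 1.

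Levels of the 10 genes can be compared with each other per kilobase of exon. In CD93pos the order of mean normalized counts per kilobase began with Tgfbr3 (46.4 ± 15.5), Smad4 (41.2 ± 22.6), Smad5 (35.7 ± 36.7) and Tgfb1 (29.3 ± 12.9), went on with Smad3 (22.3 ± 19.1) and Tgfbr1 (19.0 ± 19.3), and then Tgfbr2 (12.7 ± 11.99) and Smad2 (12.7 ± 4.58). Skil (4.31 ± 0.385) and Smad7 (2.19 ± 3.12) came last. Neighbours in that order differed by less than the larger SD of the pair, with the exception of the step from Smad2 to Skil. In CD93neg, Smad3 came first with 279 ± 388, ahead of Tgfbr3 (32.2 ± 34.7), Smad4 (23.0 ± 28.4) and Smad5 (12.8 ± 20.3), and every SD exceeded its mean. Smad3 ranked first or second in 5 of the 6 libraries and ninth in CD93pos replicate 2.

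All reads of the 10 genes summed to 314, 421 and 195 CPM in CD93pos and to 886, 242 and 193 CPM in CD93neg. Smad3 made up 0.0820% to 21.1% of them in CD93pos, and 88.6%, 25.2% and 38.0% in CD93neg replicates 1, 2 and 3. Group means were 309.9 ± 113 CPM in CD93pos and 440.3 ± 387 CPM in CD93neg, a ratio of 0.704, and 1.42 without CD93neg replicate 1. Leaving out Smad3, the member with a negative fold change in these same data, was bound to raise this ratio. Without Smad3 the other 9 genes summed to 282 ± 134 CPM in CD93pos and 134 ± 41.8 CPM in CD93neg. The ratio was then 2.10, and 1.87 without CD93neg replicate 1. The groups still overlapped, since CD93pos replicate 3 had 154 CPM of these genes and CD93neg replicate 2 had 181.

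**Figure D4:**
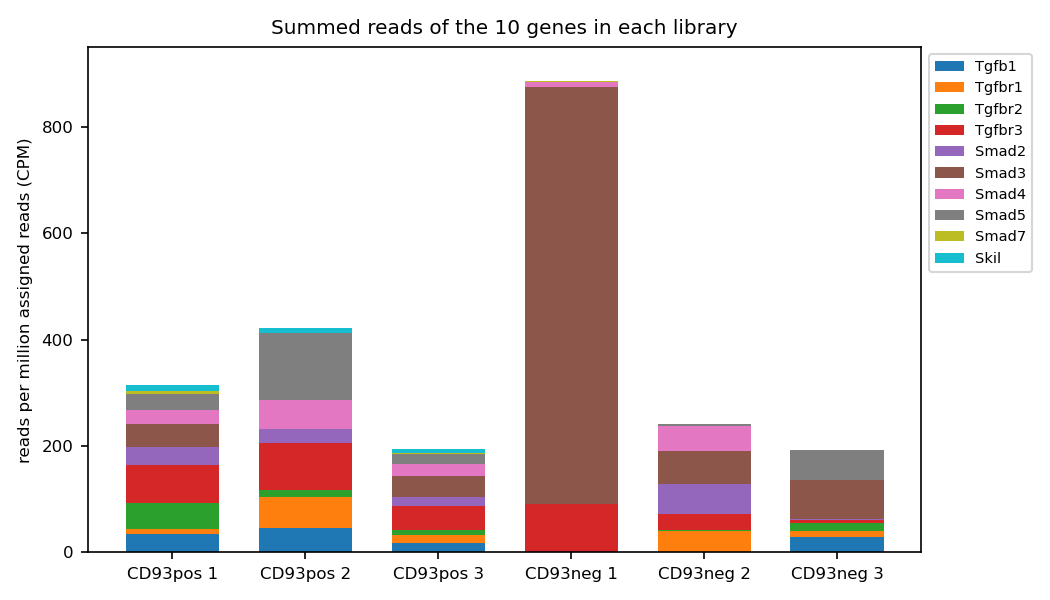
Reads of the 10 genes per 1e6 assigned (vertical axis, CPM), stacked by gene, in the 3 CD93pos and the 3 CD93neg libraries. The tallest bar, 886 CPM in CD93neg replicate 1, is 88.6% Smad3, and Smad3 makes up at most 21.1% of a CD93pos bar.

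Around these members, 98 other genes of the pathway were followed in 6 lists. Of these 76 were tested, 59 had a positive log2 fold change (77.6%, beside 79.9% of all tested genes), and limma called 0, with a smallest adjusted p of 0.0685. Without overlap 10 were higher in CD93pos (13.2%) and 0 were lower, beside 18.3% and 1.92% of all tested genes. Without CD93neg replicate 3 limma called 7 of the 76 higher (9.21%), beside 15.9% of all genes, and without CD93pos replicate 2 it called 2 higher (2.63%), beside 6.56%. No called pathway gene was lower in either fit, beside 0.0424% of all genes without CD93neg replicate 3 and 0% without CD93pos replicate 2. The difference between these shares and those of all genes was not tested.

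Among genes that keep TGF-beta latent or release it, 9 of 16 were tested, 6 were positive and the median log2 fold change was 1.40. Without CD93neg replicate 1 the median was -0.21, with 4 positive, beside 0.43 over all genes. The most read was Nrros, which tethers latent TGF-beta on myeloid cells, with mean normalized counts of 1886 ± 149.9 for CD93pos and 2940 ± 1418 for CD93neg. Emilin1, a matrix protein that restrains TGF-beta processing, had 656 ± 48.9 for CD93pos and 956 ± 930.1 for CD93neg, and Furin, a convertase that cleaves the precursor, had 52.6 ± 31.3 for CD93pos and 171 ± 264 for CD93neg. limma adjusted p-values of the 3 were 0.632 to 0.869. Reads of the other ligands were almost absent, with 0 reads of Tgfb3 in all libraries and 1 of Tgfb2, in CD93neg replicate 3.

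Of 11 receptors for BMPs and activins 5 were tested, 4 were positive and the median was 1.85, which was -0.59, with 1 positive, without CD93neg replicate 1. Eng, which encodes the coreceptor endoglin, was read most, with means of 1072 ± 228 for CD93pos and 1070 ± 898 for CD93neg. Acvr1b, the activin type I receptor, had 172 ± 173 for CD93pos and 205 ± 304 for CD93neg, and Bmpr2, the BMP type II receptor, had 113 ± 113 for CD93pos and 60.9 ± 55.7 for CD93neg. Their adjusted p-values were 0.658 to 0.712. Acvr2a, an activin type II receptor chosen after its values were seen, had 37, 103 and 15 reads for CD93pos and 0, 0 and 1 for CD93neg, with a log2 fold change of 4.18 and a limma adjusted p of 0.252. It entered the test through CD93pos alone.

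Other Smads and nuclear partners had 12 of 15 tested, 11 positive and a median of 1.87, or 1.39 without CD93neg replicate 1. Crebbp, a coactivator that Smads recruit, was, like Smad3, highest in CD93neg replicate 1, as were 13% of all tested genes. Crebbp had 1149, 2311 and 1228 reads for CD93pos and 9016, 530 and 340 for CD93neg. Snw1, a transcriptional coregulator, averaged 1687 ± 207 for CD93pos and 681 ± 739 for CD93neg, and Tgif1, a corepressor, 281 ± 170.1 for CD93pos and 394 ± 587 for CD93neg. Adjusted p-values were 0.547 to 0.736. Ipo7, an importin, was named after its values were seen, since the authors' deposited table calls it (log2 fold change 5.40, adjusted p = 0.0465). That table calls 5.58% of all genes higher and 0.389% lower. It had 1778, 696 and 539 reads for CD93pos and 1, 38 and 1 for CD93neg, with a limma adjusted p of 0.160.

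Of 20 regulators, the ubiquitin ligases, the phosphatase and the adaptors, 19 were tested, 14 were positive and the median was 2.77. Without CD93neg replicate 1 it was 0.13, with 10 positive. The 3 most read were Nedd4, a ubiquitin ligase, and the deubiquitinases Usp15 and Usp4. All had log2 fold changes near 0, from -0.48 to -0.02, beside a median of 2.36 over all tested genes. From 14.1% (Nedd4) to 19.9% (Usp15) of all tested genes had a lower one. Nedd4 averaged 2518 ± 321 for CD93pos and 3778 ± 1882 for CD93neg. Their limma adjusted p-values were 0.607 to 0.991. Nedd4l, a ubiquitin ligase that acts on activated Smad2 and Smad3, was named after its values were seen. It had 134, 117 and 195 reads for CD93pos and 0, 1 and 1 for CD93neg, with a log2 fold change of 5.70 (1.30 SE, adjusted p = 0.0685 by limma), the smallest adjusted p of the pathway. The authors' deposited table calls it, with a log2 fold change of 6.71 (adjusted p = 0.0202). Nedd4l, like Skil, entered the test through CD93pos alone.

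All 14 genes of the non-Smad branch were tested, 13 were positive and the median was 2.19, or 0.88 without CD93neg replicate 1. Rhoa, a small GTPase of the cytoskeleton, averaged 1426 ± 54.1 for CD93pos and 1395 ± 797 for CD93neg. Shc1, an adaptor, had 848 ± 190.2 for CD93pos and 540.0 ± 467 for CD93neg. Tab3, a partner of the kinase TAK1, had 43, 0 and 5 reads for CD93pos and 2178, 1 and 0 for CD93neg, so its fold change of -2.17 rested on CD93neg replicate 1. DESeq2 called Tab3 lower without CD93neg replicate 2 or 3 (adjusted p = 0.0391 and 0.0129). Those fits called 0.967% and 1.18% of all genes lower. Adjusted p-values of the 3 were 0.620 to 0.862.

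Of 22 genes known as TGF-beta targets in various cells 17 were tested, 11 were positive and the median was 1.83. Klf10, a transcription factor induced early by TGF-beta, had 3285, 5130 and 2799 reads for CD93pos and 0, 1411 and 118 for CD93neg. Its groups did not overlap. In the same direction this held for 2 of the 17 targets and for 18.3% of all tested genes. Klf10 had mean normalized counts of 2430.0 ± 1420 for CD93pos and 509 ± 728 for CD93neg. Its log2 fold change was 5.12 (2.56 SE, adjusted p = 0.456 by limma). Junb, an AP-1 factor, had means of 770.4 ± 261 for CD93pos and 1194 ± 1034 for CD93neg, against a log2 fold change of 1.83 that includes 1 read in CD93neg replicate 1, and Vim, the intermediate filament vimentin, had 716 ± 248 for CD93pos and 520.2 ± 491 for CD93neg. Mmp9, a secreted protease also made by neutrophils, was named after its values were seen. It had 6, 0 and 0 reads for CD93pos and 0, 701 and 568 for CD93neg, and the authors' deposited table calls it lower (log2 fold change -9.10, adjusted p = 0.00943), where limma gave an adjusted p of 0.428. Mmp9 entered the test through CD93neg alone. The neutrophil markers were high in the same CD93neg libraries, and their part in the Mmp9 values was not tested. Without CD93neg replicate 1 the median of the list was -0.84, with 5 of 17 positive, beside 0.43 over all genes.

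**Figure D5:**
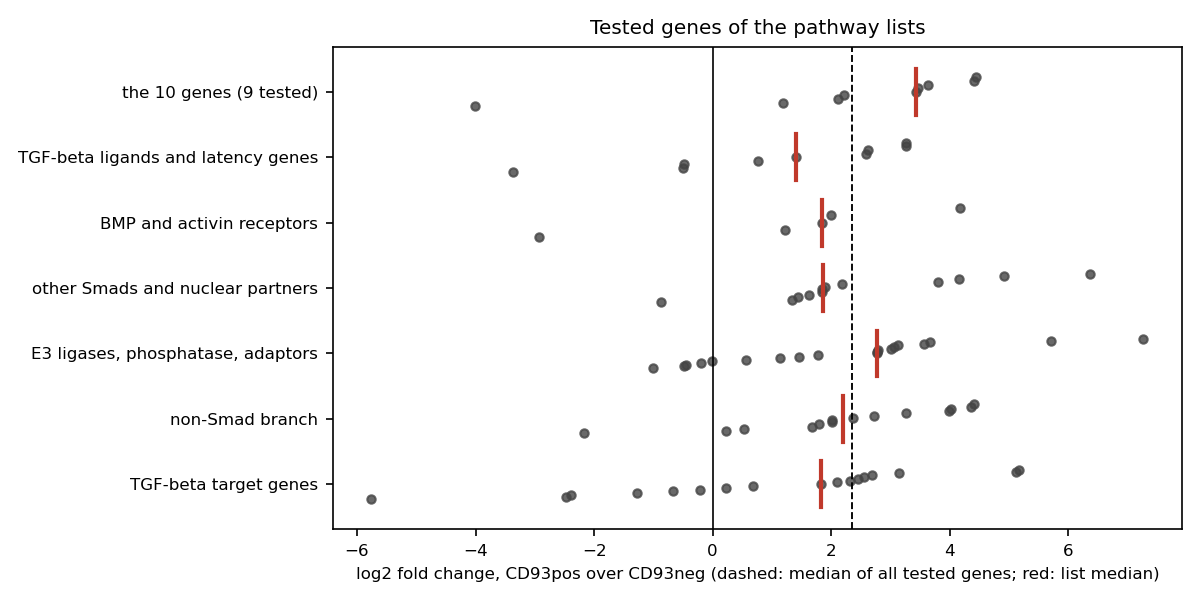
Fitted log2 fold changes, CD93pos over CD93neg (horizontal axis), of the tested members and of the tested genes of the 6 other pathway lists (1 point a gene), with list medians in red and the median of all tested genes, 2.36, as a dashed line. Medians of the other lists run from 1.40 to 2.77, and no point is a gene called by limma.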

How the data were processed

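Per the submitters' processing notes, the tools were STAR, Subread 1.5.0-p1 with featureCounts and DESeq2 1.26, and the builds GRCm38 and mm10. The annotation release and strandedness are not given in the sources used. The authors deposited normalized counts (signal values: reads over each library's size factor) and a table with log2 fold changes and their errors, a Wald score, p-values and adjusted p-values. All nonzero values (100%, tolerance 0.001) could be turned back into whole reads. For the 11805 of 47937 genes averaging at least 10, limma 3.58.1 with a trend was run two-sided on log2(normalized count + 1), Benjamini-Hochberg adjusted, threshold 0.05. edgeR 4.0.16 and DESeq2 1.42.0 on the recovered reads were alternatives, in R 4.3.3. The log scale makes fold changes large where a library is at 0. Positions and exon lengths came from GENCODE M21 (47310 IDs matched without their version), with Python 3.11.15. Strand being unstated, antisense reads could not be separated. The code was tested on simulated counts that spread less than these data and held no sparse library. That check therefore does not show how the fits behave here.

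The members, lists and tests were chosen with earlier results of these data known. Named genes were the members, the 3 most read tested genes of each list, and any list gene past the threshold (none). Outside that rule, Acvr2a, Ipo7, Nedd4l, Mmp9, Smad1, Tgfb2, Tgfb3, the Y-linked genes and the single markers Cd34, Cd48, Flt3 and Xist were named after their values were seen. No set test was run. Count tests with each library left out were added after seeing the data. Intervals and floors of 3 reads cover counting error only, and reads of amplified libraries are not independent molecules.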

Additional observations from a re-analysis of the deposited data

How the results depend on the processing

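One limit is the depth and sparsity of CD93neg, where replicate 1 read 4 of the 10 genes, and another is that Y-linked reads were all but absent from CD93neg. Alternatives covered the pseudocount, the filter, the scaling, the test, library quality weights, a replicate block and each library left out. No member was called in 26 of 29 such fits, and 1 was in the other 3 (Tgfb1 by limma and DESeq2 without CD93neg replicate 3, Smad2 by DESeq2 without CD93neg replicate 2), so leaving out a library gave 0 to 1. Over all genes, 0 calls became 206 with a pseudocount of 0.5, 705 in DESeq2, 24 with a replicate block and 0 to 2446 with a library left out, the highest in DESeq2 without CD93neg replicate 3. The replicate block changed no other call of a member or list. Same-numbered libraries did not deviate together (correlations of 0.0372, 0.0191 and 0.0605), so the numbers were not taken as pairs. Each library correlated best with its own number, but these values were near 0 and the labels name no pairs. The cause of the changes below was not tested.

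The median log2 fold change of all genes was 2.36, and 2.49 with CPM, 2.55 with TMM and 0.02 with quantile normalization. Under quantile normalization the sign turned, with log2 fold changes of Tgfbr1 -0.54, Tgfbr2 -0.0937, Skil -0.0795, Furin -1.99, Emilin1 -0.51, Acvr1b -0.77, Bmpr2 -0.89, Tgif1 -1.002, Usp4 0.66, Usp15 0.79 and Junb -0.51. Library quality weights turned Tgfbr1 -0.58, Furin -0.72, Emilin1 -0.76, Acvr1b -0.80, Bmpr2 -0.31, Eng -0.34, Tgif1 -0.51, Crebbp 0.13, Usp4 0.80, Usp15 0.36, Tab3 2.38 and Junb -0.98. edgeR turned Furin -1.60, Emilin1 -0.47, Acvr1b -0.20, Tgif1 -0.42, Usp15 0.0251 and Junb -0.56, and DESeq2 turned Furin -1.70, Emilin1 -0.54, Acvr1b -0.25, Tgif1 -0.49 and Junb -0.63. TMM scaling turned Usp4 0.0462 and Usp15 0.22, and CPM turned Usp15 0.0718. The median of the other Smads and nuclear partners was -0.38 under quantile normalization and -0.10 in DESeq2, and that of the target genes was -1.69 under quantile normalization. DESeq2 called 1 gene each among the nuclear partners, the regulators and the targets, beside 5.58% of all genes higher and 0.389% lower. In the authors' deposited table Ipo7 and Nedd4l were called higher and Mmp9 lower.

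With each library left out in limma, edgeR and DESeq2, the log2 fold changes that turned ranged as follows: Tgfbr1 -0.55 to 3.66, Smad2 -0.18 to 7.09, Furin -2.27 to 2.84, Emilin1 -1.11 to 2.85, Acvr1b -1.46 to 3.89, Bmpr2 -0.31 to 3.22, Eng -0.59 to 2.15, Tgif1 -1.09 to 3.82, Crebbp -3.17 to 1.07, Usp4 -1.56 to 0.88, Usp15 -0.69 to 0.54, Tab3 -9.73 to 3.76, Rhoa -0.29 to 0.64, Junb -1.27 to 3.41 and Vim -0.12 to 3.74. Genes called by limma with a library left out numbered 0 to 2 among the nuclear partners, 0 to 2 among the regulators, 0 to 1 in the non-Smad branch and 0 to 2 among the targets, with the higher number without CD93neg replicate 3, where 15.9% of all genes were called higher. Without CD93pos replicate 2, where 6.56% were, they numbered 1 among the regulators and 1 in the non-Smad branch. The ratio of summed reads ranged from 0.55 to 1.42, and 1.42 was the value without CD93neg replicate 1. Of the values of single genes under an alternative, 654 kept their direction and their side of the threshold, 129 turned and 5 came to be called (Tgfb1, Smad2 and Tab3). In all fits that were run Smad3 was negative, and Tgfb1, Tgfbr3, Smad4 and Smad5 were positive.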
